A study of Mus musculus with 10 samples.

Results

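The miR-34 family was followed through 10 small RNA libraries of pressure-loaded mouse heart, as 5 mature miRNAs from 2 genomic loci. The members are mmu-miR-34a-5p, from the Mir34a locus, and mmu-miR-34b-5p, mmu-miR-34b-3p, mmu-miR-34c-5p and mmu-miR-34c-3p, the arms of the neighbouring Mir34b and Mir34c hairpins. They were taken by name from tables of 1139 mouse miRNAs. All 5 were present and all 5 passed the filter on low counts that left 457 miRNAs for testing. The libraries came from hearts of male C57Bl6N mice, 5 labelled as CITED4 knockout and 5 as floxed control, and every mouse had undergone transverse aortic constriction 1 week before the heart was taken. That operation narrows the aorta and loads the left ventricle with pressure, so no library shows the family in an unloaded heart. CITED4 is a transcriptional co-regulator. The labels do not state the age of the mice, the way the knockout was made or whether a library is 1 animal, and miRNA counts do not measure Cited4 itself.

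miR-34 miRNAs are known as direct transcriptional targets of the tumour suppressor p53, and they repress messenger RNAs of cell cycle entry and survival. Target choice rests mainly on the seed, bases 2 to 8 of the mature strand, and the family shares its 5p seed with the miR-449 miRNAs. The loci differ in where they are used: miR-34a is made in many tissues and is known to rise with age and injury in the heart, whereas miR-34b and miR-34c are best known from multiciliated epithelium and testis. A hairpin is cut into a 5p and a 3p arm, and usually one of them, the guide, is kept.

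Mir34a lies on chromosome 4 (150068454 to 150068555, plus strand, GRCm38.p6), and only an unclassified transcript, Gm37795, overlaps the 3′ end of its hairpin on the same strand. Mir34b (51103562 to 51103645) and Mir34c (51103034 to 51103110) lie on the minus strand of chromosome 9 with 451 bases between them, inside the span of Btg4 but on the opposite strand and in none of its exons, by the GENCODE annotation of GRCm38. The hairpins below are those of RefSeq, 5′ to 3′, with the mature arms in capitals, and show which stretches the counts refer to.

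Mir34a: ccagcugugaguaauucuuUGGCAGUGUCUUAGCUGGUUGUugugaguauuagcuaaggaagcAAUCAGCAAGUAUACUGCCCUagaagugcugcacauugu
Mir34b: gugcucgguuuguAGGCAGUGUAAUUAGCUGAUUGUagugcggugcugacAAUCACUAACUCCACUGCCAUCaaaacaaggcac

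Mature sequences of 4 of the 5 members were matched in RefSeq (GRCm38.p6); miR-34c-5p is named only. They are printed with the seed in capitals, together with miR-34a-3p, the other arm of Mir34a, and miR-449a-5p, because the seeds sort them into groups that cut across the loci.

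miR-34a-5p: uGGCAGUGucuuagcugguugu
miR-34b-5p: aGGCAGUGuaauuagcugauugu
miR-449a-5p: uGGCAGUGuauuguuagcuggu
miR-34b-3p: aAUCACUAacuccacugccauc
miR-34c-3p: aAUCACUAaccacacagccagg
miR-34a-3p: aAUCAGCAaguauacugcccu

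The 5p arms of Mir34a, Mir34b and Mir449a carry 1 seed, GGCAGUG. In RefSeq's 1679 mature mouse miRNAs 4 names have it, the fourth being miR-449c-5p, which has no row in the deposited counts. The 3p arms of Mir34b and Mir34c share another seed, AUCACUA, that no other mature miRNA in the table has, and they match at 17 of 22 positions. As no rule for reads that fit several miRNAs is stated in the labels, some reads of these similar arms may have been counted under the other name.

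Library totals ran from 7526091 to 18369483 counts. Levels are given as CPM, the usual depth-scaled unit of counts, here over library totals scaled with edgeR's TMM factors, which ranged from 0.790 to 1.22. The muscle miRNA miR-1a-3p was at 217084 to 497444 CPM in the 10 libraries, and all 5 cardiomyocyte markers listed were detected in each. A principal component of log2 CPM over the 457 tested miRNAs held 44.8% of the variance and spread both genotypes: control replicates 3, 4 and 5 and knockout replicate 4 lay on one side of it, knockout replicate 3 close to its centre and the other 5 libraries on the opposite side.

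The main finding on levels was a contrast between the loci. miR-34a-5p was steady, within a 1.42-fold range over all 10 libraries, while each arm of the Mir34b/c locus spanned a 5.06-fold to 6.0-fold range, and the arms moved together. That spread ran through both genotypes. Means of the 4 miR-34b/c arms were 1.39-fold to 1.76-fold higher in knockout hearts, but the groups overlapped and none of the 5 members passed the test.

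miR-34a-5p, the broadly expressed member, held 79202 of the counts and ranked 64th of 1139 miRNAs by mean level. In control replicates 1 to 5 it was at 724, 613, 575, 720 and 817 CPM. In knockout replicates 1 to 5 it was at 588, 663, 717, 748 and 728 CPM. The knockout libraries lay inside the control range, with a control mean of 690 ± 96.5 CPM and a knockout mean of 689 ± 64.5 CPM (± is the SD over 5 libraries here and for the other CPM means). Its log2 fold change was -0.0026 ± 0.13 (SE), with a 95% interval in fold units from 0.82 to 1.22 (edgeR's quasi-likelihood test, adjusted p = 0.99). The sign of this value is not a direction, since it turned with scaling by library totals only (0.11), a scaling that moved the median of all tested miRNAs from 0.03 to 0.14. Of the other arm, miR-34a-3p, the 10 libraries held 20 counts in all, at most 9 in a library and 0 in 4 of them, so the Mir34a hairpin was read almost entirely from its 5p side.

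miR-34c-5p, the guide of the other locus and the second most abundant member, ranked 112th. In control replicates 1 to 5 its level was 263, 242, 87.8, 69.3 and 52.2 CPM. In the knockout replicates, in the same order, it was 314, 288, 150, 84.5 and 229 CPM. Control replicates 1 and 2 were high and the other 3 controls low, knockout replicates 1 and 2 lay above every control, and knockout replicate 4 sat among the low controls. The control mean was 143 ± 101 CPM and the knockout mean 213 ± 95.5 CPM, which gave a log2 fold change of 0.57 ± 0.46 (SE; edgeR's quasi-likelihood test, unadjusted p = 0.24, adjusted p = 0.64). The 95% interval ran from 0.74-fold to 2.98-fold, so it covers decreases as well as increases.

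miR-34b-3p, the more abundant arm of Mir34b, was at 23.2, 25.5, 7.26, 7.78 and 5.21 CPM in the controls. Its knockout levels were 28.5, 29.0, 14.3, 6.64 and 24.5 CPM. High and low libraries were the ones seen for miR-34c-5p, and knockout replicate 4 lay below 4 of the 5 controls. Group means were 13.8 ± 9.73 and 20.6 ± 9.78 CPM, and the log2 fold change was 0.57 ± 0.48 (SE; adjusted p = 0.65 in edgeR's test).

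miR-34b-5p, which carries the seed of miR-34a-5p, was at 11.8, 14.1, 5.85, 3.95 and 3.03 CPM in the controls. The knockout libraries held 15.3, 11, 10.9, 6.55 and 10.5 CPM. Every knockout library lay inside the control range or, for replicate 1, just above it. Means of 7.74 ± 4.91 and 10.9 ± 3.11 CPM gave a log2 fold change of 0.48 ± 0.39 (SE; adjusted p = 0.64 in edgeR's test).

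miR-34c-3p, the minor arm of Mir34c and the rarest member on average, had control levels of 7.97, 8.62, 2.69, 3.58 and 2.18 CPM. In knockouts it was at 12, 13, 7.13, 2.94 and 9.54 CPM. Knockout replicates 1, 2 and 5 exceeded every control, whereas replicates 3 and 4 did not. This member had the largest difference of the 5, with means of 5.01 ± 3.05 and 8.93 ± 4.04 CPM and a log2 fold change of 0.81 ± 0.44 (SE; unadjusted p = 0.089, adjusted p = 0.64 in edgeR's test). Its counts were small, with 18 in control replicate 5, for which counting error alone gives a 95% Poisson interval of 10.7 to 28.4.

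**Figure D1:**
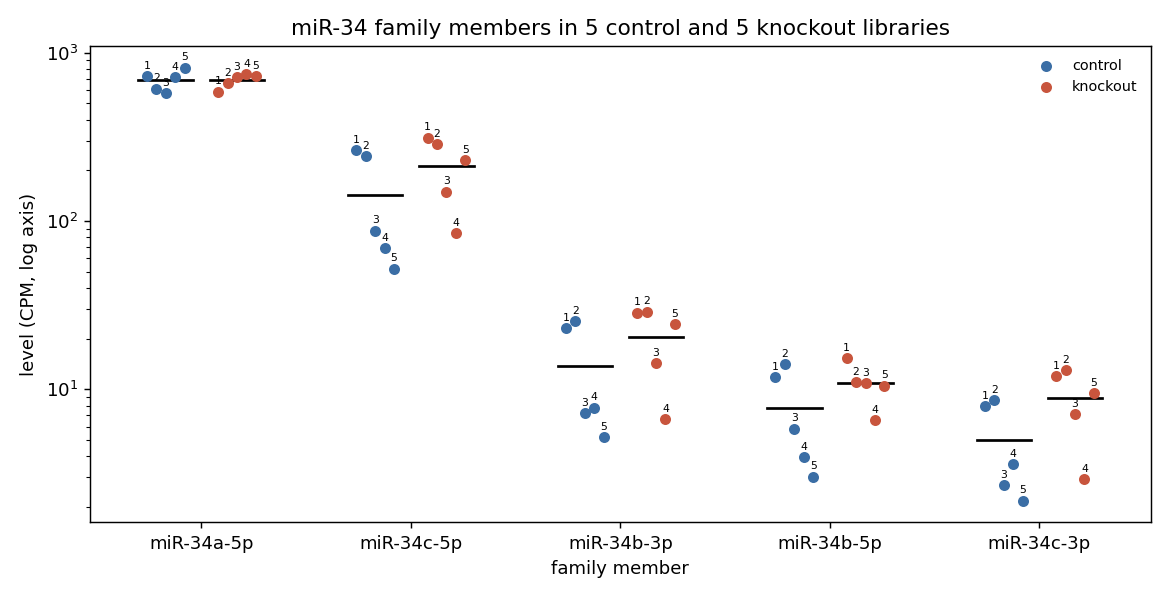
Level of each family member in CPM on a log axis, by genotype. Points are libraries, labelled with the replicate number, and bars are group means; miR-34a-5p stays between 575 and 817 CPM, while each miR-34b/c arm spreads over 5.06-fold or more in both groups together.

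In 9 of 10 libraries the counts fell in 1 order, from miR-34a-5p through miR-34c-5p, miR-34b-3p and miR-34b-5p to miR-34c-3p. The exception, knockout replicate 2, had 132 counts of miR-34c-3p and 112 of miR-34b-5p. The mature strands with a printed sequence are nearly equal in length, so counts needed no length scaling, but ligation and amplification can differ between miRNAs and were not measured. The distance between the top members was not fixed: miR-34a-5p had 1.87 times as many counts as miR-34c-5p in knockout replicate 1 and 15.6 times as many in control replicate 5.

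Over all miRNAs tested, edgeR called 0 of 457 at an adjusted p of 0.05 (0%), DESeq2 0 of 1105 and limma 0 of 457. At an unadjusted p under 0.05 edgeR counted 29 of 457 (6.35%), DESeq2 45 and limma 22, and none of the 5 members was among edgeR's 29. Means were higher in knockout for 4 of the 5 members, all from the Mir34b/c locus, against 53.2% of all miRNAs tested, and these arms share a locus and vary together, so they are not 4 separate observations. Their median log2 fold change was 0.57, against 0.03 over the 457. In these p-values the spread is that between libraries, which may be technical.

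The question of whether the loci respond differently to genotype was put to the ratio of the summed miR-34b/c counts to miR-34a-5p counts, which does not depend on how libraries are scaled. In control replicates 1 to 5 this ratio was 0.422, 0.474, 0.180, 0.117 and 0.0767. The knockout ratios were 0.629, 0.514, 0.254, 0.135 and 0.376. Their spread was 8.19-fold over the 10 libraries, with knockout replicates 3, 4 and 5 inside the control range and replicates 1 and 2 above every control.

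On the log2 scale the ratio averaged -2.32 ± 1.14 in controls and -1.58 ± 0.88 in knockouts. The difference of 0.73 did not pass the test (two-sided exact permutation test, p = 0.29, adjusted over 4 ratios p = 0.85), where 0.0079 is the smallest p that 5 against 5 can give. With each library left out in turn it lay between 0.39, without control replicate 5, and 1.06, without knockout replicate 4. Counting error was small beside this spread: the Mir34b/c locus gave 38.6% of the 5 members' counts in knockout replicate 1 (95% Wilson interval 37.7 to 39.5) and 7.13% in control replicate 5 (6.56 to 7.74). Whether duplicate reads were collapsed is not stated in the labels, so such intervals cover counting error only.

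**Figure D2:**
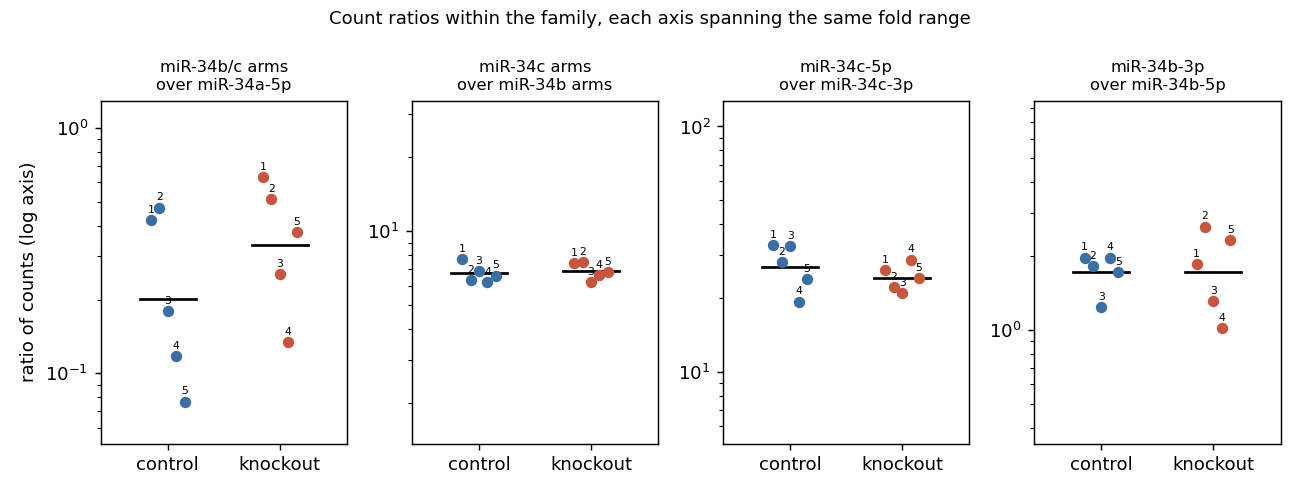
Ratios of counts within the family by genotype, on log axes that all span the same fold range. Points are libraries with their replicate number and bars are geometric means; the ratio of the 2 loci spreads 8.19-fold, the ratio of the 2 hairpins of the shared locus 1.24-fold.

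Within the chromosome 9 locus the proportions were nearly constant. The miR-34c arms together had 6.21 to 7.73 times the counts of the miR-34b arms in the 10 libraries, with a mean of 6.76 ± 0.60 in controls and 6.92 ± 0.55 in knockouts. The log2 difference of 0.04 between genotypes was within the spread (exact two-sided permutation test, p = 0.63, adjusted p = 0.85). miR-34c-5p made up 81.9% to 85.9% of the locus in every library, miR-34b-3p 6.60% to 9.20%, miR-34b-5p 3.23% to 6.51% and miR-34c-3p 2.6% to 4.23%. The composition stayed within these ranges while the summed level of the locus spanned 5.90-fold.

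Across libraries the summed miR-34c and miR-34b arms had a Pearson r of 0.995 and a Spearman rho of 0.98 (n = 10, permutation p = 2e-05 and 4e-05, adjusted over 2 correlations 4e-05 and 8e-05, with 2e-05 the smallest p the permutations can give). Without the libraries farthest from the median, control replicates 4 and 5, r was 0.99. Both sums share each library's scaling, and the summed level had a gap of 0.81 on the log2 scale between 6 higher and 4 lower libraries, 31.7% of its range. With genotype means subtracted r was 0.994. A high r was not particular to these hairpins. Of 452 miRNAs that are not members 24 had an r above 0.9 with the summed arms of the locus, the highest 0.978. The permutation test makes no comparison with them.

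The loci did not follow each other in this way. miR-34a-5p and the summed miR-34b/c arms had an r of -0.45 and a rho of -0.53 (n = 10, permutation p = 0.18 and 0.12, adjusted over the 2 correlations p = 0.18 and 0.12). Scaled by library totals only, r became 0.51 (permutation p = 0.13), so the sign of this relation depends on the scaling and no direction can be given. Without control replicate 3 and knockout replicate 1, the libraries farthest from the miR-34a-5p median, r was -0.71 (exact permutation p = 0.021), while rho was -0.62 (exact permutation p = 0.12).

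**Figure D3:**
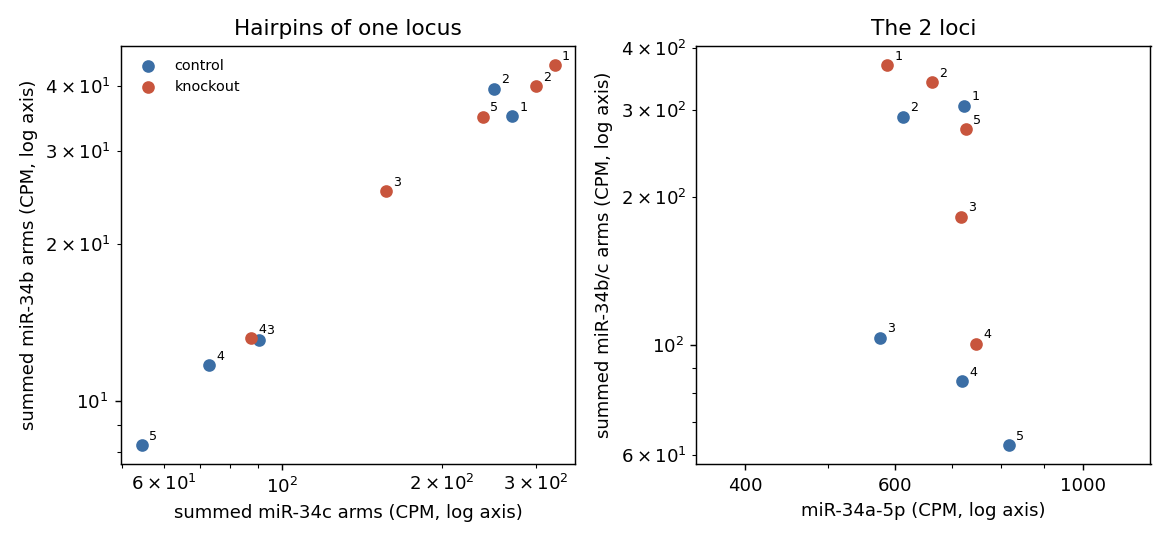
Left, summed miR-34b arms against summed miR-34c arms; right, summed miR-34b/c arms against miR-34a-5p, all in CPM on log axes. Each point is a library with its replicate number; the hairpins of the shared locus rise together (r = 0.995), and miR-34a-5p varies little while the other locus spans 62.7 to 370 CPM.

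Arm use differed between the hairpins. Mir34c was read mostly from its 5p side, with 95.1% to 97.1% of its counts on miR-34c-5p in each library, a 5p to 3p ratio of 27.4 ± 5.81 in controls and 24.4 ± 3.09 in knockouts. For this hairpin the log2 ratio differed by -0.14 between genotypes (exact two-sided permutation test, p = 0.43, adjusted p = 0.85). Mir34b was the opposite and far less lopsided: miR-34b-3p outnumbered miR-34b-5p by 1.74 ± 0.30 in controls and 1.83 ± 0.68 in knockouts. The genotype difference on the log2 scale was 0.01, with p = 0.99 in the exact two-sided permutation test.

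The Mir34b arm balance ranged more widely among the knockouts. Of Mir34b counts, miR-34b-3p took 72.5% in knockout replicate 2 (95% Wilson interval 67.9 to 76.6) and 69.9% in replicate 5 (66.2 to 73.3), with 65.0% in replicate 1. It took 56.6% in replicate 3 (51.7 to 61.4) and 50.4% in replicate 4 (42.2 to 58.5). The controls ran from 55.4% to 66.3%, on as few as 43 counts of miR-34b-3p and 25 of miR-34b-5p in control replicate 5. The intervals hold counting error only, so they do not test whether knockout libraries differ.

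The analysed 5p strands of this seed group were counted together (miR-34a-5p, miR-34b-5p, miR-34c-5p, placed here by its family name, and miR-449a-5p). Their dose of the shared seed, without miR-449c-5p, moved far less than the Mir34b/c locus. It summed to 847 ± 122 CPM in controls and 917 ± 54.6 CPM in knockouts, with a range of 673 to 1006 CPM over the 10 libraries. Both the sum of the group, over a 1.49-fold range, and its makeup changed. As miR-34a-5p was the larger part in every library, the sum leans on it. miR-34a-5p made up 93.1% of the group in control replicate 5 and 63.9% in knockout replicate 1, while miR-449a-5p never exceeded 0.894%. The lowest, middle and highest miR-34a-5p shares were 70.0%, 85.5% and 93.1% in controls and 63.9%, 74.7% and 88.5% in knockouts, so the groups overlapped.

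miR-449a-5p, encoded in an intron of Cdc20b on chromosome 13 and the relative that is typical of multiciliated cells, stayed low. It had 33 to 120 counts, with means of 6.09 ± 1.35 (control) and 4.77 ± 1.59 CPM (knockout) and a log2 fold change of -0.35 ± 0.27 (SE; adjusted p = 0.64 in edgeR's test). Its r with the summed miR-34b/c arms was -0.25 over the 10 libraries, given as a description, against 0.95 or more for the arms of Mir34b/c with miR-34c-5p.

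Members differed in how much they varied inside a genotype. The within-group SD of log2 CPM was 0.93 for miR-34c-5p, 0.97 for miR-34b-3p, 0.86 for miR-34c-3p and 0.73 for miR-34b-5p, ranks 21, 18, 32 and 55 of 457, where the median miRNA had 0.39. miR-34a-5p had 0.18 and rank 416. Among the 125 miRNAs with a mean log2 CPM at or above that of miR-34c-5p, it had the second highest SD, after the erythroid miRNA miR-144-3p (1.01) and ahead of miR-199a-5p (0.72). Rare miRNAs vary more through counting alone; the counts of miR-34c-5p were 431 or more.

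The miRNAs whose log2 CPM followed the summed miR-34b/c arms most closely over the 10 libraries were miR-434-5p (r = 0.98), miR-379-5p (0.98), miR-214-5p (0.98), miR-147-3p (0.98) and miR-199a-5p (0.97). Of 452 miRNAs that are not members, 24 had an r above 0.9 and 23 one below -0.9, so such values are common for this locus. All of them shared the library scaling, and the counts depended on it. With library totals only they were 46 above 0.9 and 1 below -0.9. miR-379-5p and miR-434-5p come from the imprinted Dlk1-Dio3 cluster, and miR-199a-5p and miR-214-5p are known from mesenchymal cells. miR-379-5p spanned 325 to 1176 CPM and miR-199a-5p 324 to 1401 CPM. miR-147-3p was rare, at 0.364 to 4.45 CPM, so its r rests on few counts. With library totals only all 5 kept an r above 0.9.

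At the other end were miR-149-5p (r = -0.96), miR-378a-3p (-0.95), miR-378a-5p (-0.94), miR-15a-5p (-0.94) and miR-133b-3p (-0.94). miR-378a lies in the gene of the metabolic coactivator PGC-1β, and miR-133b-3p is a muscle miRNA. Under library totals only these values were closer to 0, with r of -0.70, -0.76, -0.83, -0.26 and -0.69 in the same order. The principal component named above had an r of 0.987 with the summed arms and of -0.38 with miR-34a-5p, a description only, since the component was computed with the members included.

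For miR-34a-5p the closest miRNAs were miR-195a-5p (r = 0.81), miR-16-5p (0.79), miR-467e-5p (0.74), miR-148a-3p (0.74) and miR-674-5p (0.71). None of the 452 exceeded 0.9 in size, and with library totals only 1 did. Under that scaling these 5 had r of 0.38, 0.78, 0.48, 0.84 and 0.71. miR-195a-5p and miR-16-5p share a seed of the miR-15/16 family. At the other end stood miR-487b-3p (r = -0.88) and miR-122-5p (-0.86), whose r with library totals only was 0.32 and 0.04.

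**Figure D4:**
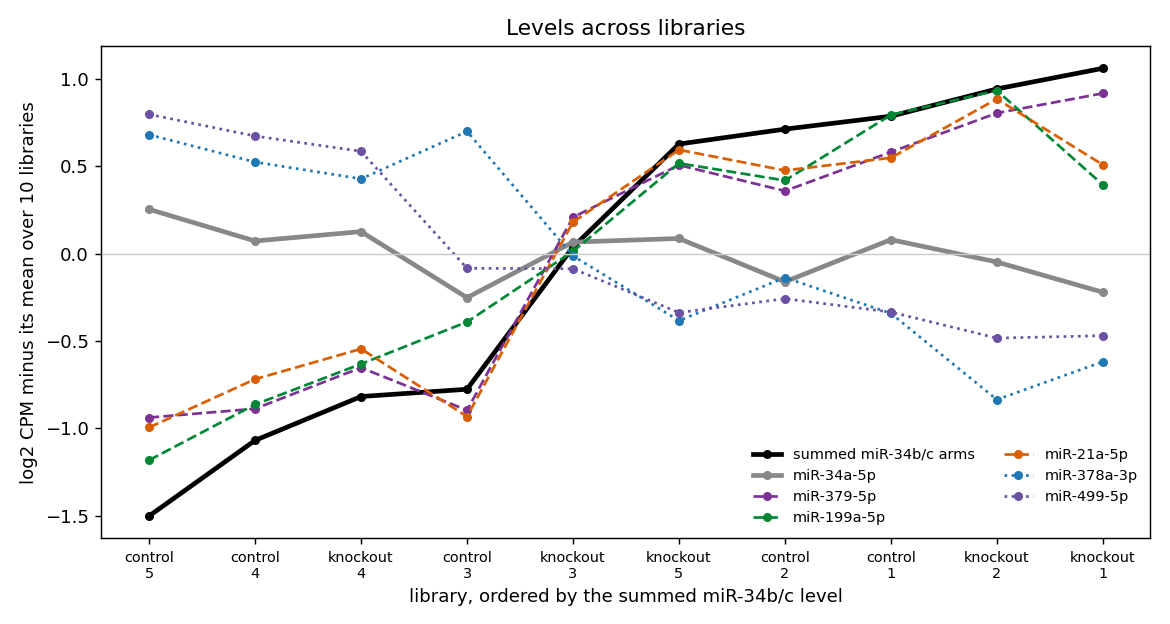
log2 CPM minus its mean over the 10 libraries, which are ordered along the horizontal axis by the summed miR-34b/c level. The summed arms (black) and miR-379-5p, miR-199a-5p and miR-21a-5p (dashed) rise along this order, miR-378a-3p and miR-499-5p (dotted) fall, and miR-34a-5p (grey) stays near 0; the order itself comes from the plotted values.

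Marker lists of the cell types of a heart were set beside the locus. In whole tissue, fewer cells of a type and less RNA per cell cannot be told apart. The fibroblast list summed to 39087 to 109354 CPM in controls and 52992 to 133160 CPM in knockouts, with 5 of 5 markers detected in each library. Of the 5 markers 4 had a higher mean in knockout, against 53.2% of all miRNAs tested, and edgeR's test called 0. The sum of the list had an r of 0.96 with the summed miR-34b/c arms (0.98 with library totals only). Most of that sum was miR-21a-5p, at a control mean of 52572 CPM against 67605 CPM for the list. miR-21a-5p, the most abundant of the list and known to rise in cardiac fibrosis, had an r of 0.97, miR-199a-5p one of 0.97 and miR-199a-3p one of 0.92, while miR-145a-5p, also made in smooth muscle, was at -0.63.

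The sum of the cardiomyocyte list went the other way. It was almost all miR-1a-3p, at a control mean of 351241 CPM against 356649 CPM for the list, so its r is close to that of miR-1a-3p alone. The sum ran from 242634 to 504094 CPM in controls and 220632 to 386779 CPM in knockouts, with an r of -0.75 (-0.84 with library totals only). Of the 5 markers 4 had a lower mean in knockout and edgeR's test called 0, while 53.2% of all miRNAs tested had a higher mean. miR-499-5p, encoded in a myosin gene, had an r of -0.93, miR-133a-3p one of -0.92 and miR-1a-3p one of -0.74. miR-208b-3p, also encoded in a myosin gene, did not follow this (r = 0.003), and its means were 181 ± 41.4 CPM in controls and 231 ± 57.7 in knockouts. The part of cell makeup in the spread of miR-34b/c was not tested.

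Epithelial markers, of interest because miR-34b/c are abundant in ciliated cells, were low. Of 9 in the list 8 were in the table and 7 were tested. With the TMM scaling their sum was 22.2 to 27.0 CPM in controls and 21.6 to 25.6 CPM in knockouts, a 1.25-fold range. The r of this sum with the summed miR-34b/c arms was -0.36, and 0.71 with library totals only. The part of epithelial cells in the level of the locus was not tested. miR-200c-3p was at 5.73 to 10.4 CPM and miR-200b-3p at 2.06 to 4.04 CPM. The rarest markers spread more, miR-429-3p from 0.19 to 3.34 CPM and miR-141-3p from 0.0982 to 2.28 CPM, and miR-205-5p had 0 to 10 counts in a library and was not tested. No marker of the list was at 0 in every library.

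Leukocyte markers summed to 1634 to 1677 CPM in controls and 1490 to 1862 CPM in knockouts. miR-155-5p (470 to 685 CPM), miR-223-3p (282 to 546 CPM) and miR-142a-3p (248 to 397 CPM) led this list, whose 6 members split 3 and 3 in direction. Their r with the summed miR-34b/c arms ran from -0.84 for miR-150-5p to 0.93 for miR-146b-5p. The endothelial pair, miR-126a-3p and miR-126a-5p, summed to 26220 to 35318 CPM in controls and 25223 to 34443 CPM in knockouts. Of these arms of 1 hairpin 2 of 2 had a lower mean in knockout, while 53.2% of all miRNAs tested had a higher one. The r of the epithelial, leukocyte and endothelial sums with miR-34b/c was -0.36, 0.28 and -0.67, and became 0.71, 0.74 and 0.21 with library totals only. In each of these lists edgeR's test called 0 members.

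Other miRNAs tied to p53 were set beside the family. Of 14 listed (direct p53 targets, miRNAs whose processing p53 is known to promote, and regulators of p53) 13 were tested, and edgeR called 0. Of the 13, 5 had a higher and 8 a lower mean in knockout, while 53.2% of all miRNAs tested had a higher mean. The median log2 fold change was -0.04, against 0.03 over all tested miRNAs. miR-143-3p was at 30858 ± 2262 CPM in controls and 30307 ± 2671 in knockouts, miR-16-5p at 21087 ± 2347 and 20559 ± 1136, and miR-125b-5p, which represses p53, at 5991 ± 789 and 6263 ± 486.

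Across libraries 10 of the 13 had a negative and 3 a positive r with the summed miR-34b/c arms, a split that was not tested. Over the 452 tested miRNAs that are not members the median r was 0.01. These values depend on the scaling: miR-15a-5p had an r of -0.94 with TMM and of -0.26 with library totals only. miR-215-5p, miR-504-5p and miR-125b-5p had r of 0.62, 0.59 and 0.72, whereas miR-192-5p, miR-194-5p, miR-107-3p and miR-15a-5p were between -0.94 and -0.85 and the other 6 between -0.71 and -0.14, all with the TMM scaling. The list's sum changed 1.18-fold over the 10 libraries, and its r with the locus went from -0.64 to 0.59 when library totals replaced the TMM scaling. Most of the sum was miR-143-3p and miR-16-5p, at control means of 30858 and 21087 CPM against 65376 CPM for the list. It therefore says little of the rarer members. miR-194-5p had the smallest unadjusted p of the list (186 ± 27.7 CPM in controls, 148 ± 31.7 CPM in knockouts, log2 fold change -0.33 ± 0.17, adjusted p = 0.64 in edgeR's test).

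**Figure D5:**
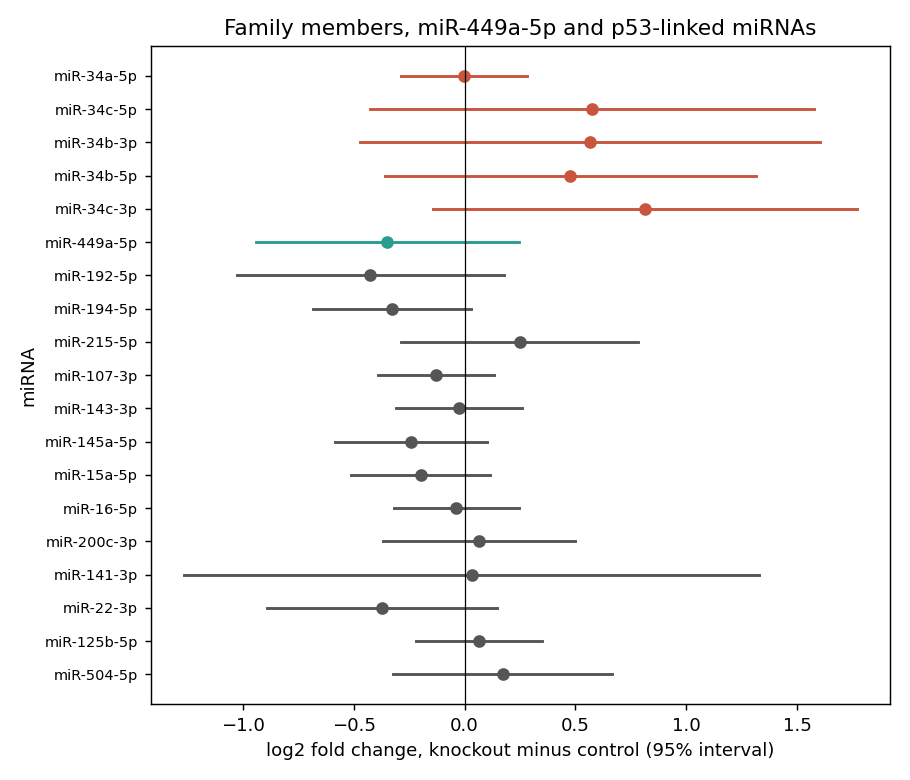
log2 fold change, knockout minus control, with the 95% interval of edgeR's quasi-likelihood fit, for the 5 family members (red), miR-449a-5p (green) and 13 p53-linked miRNAs (grey). Every interval holds 0; that of miR-34a-5p runs from -0.29 to 0.28 and that of miR-34c-5p from -0.43 to 1.58.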

How the data were processed

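Small RNA was sequenced from RNA of frozen hearts with a NEXTflex kit, per the labels' protocols. The authors deposited raw read counts per mature miRNA, and a signal equal to those counts divided by 1 factor per library (checked, largest relative deviation 5.1e-15). For the upstream steps the submitters' processing notes list GRCm38, STAR, Bowtie, cutadapt 1.10 and DESeq2 without saying what each did. Columns were matched to libraries by genotype and number in the titles.

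Counts were filtered with filterByExpr (457 of 1139 miRNAs, 99.99% of counts), scaled with TMM and tested with edgeR 4.0.16 (quasi-likelihood, genotype as the only term, Benjamini-Hochberg over 457). limma 3.58.1 on log2(deposited signal + 1) and DESeq2 1.42.0 were alternatives. log2 CPM used a prior count of 2. Ratios used counts plus 0.5. Correlations used 100000 permutations, or all orders for 8 libraries. The edgeR fit was tried on simulated data. Whether it can detect differences of the size seen for the miR-34b/c arms was not tested. Named miRNAs are the members, the 5 most alike each locus and the 3 most abundant of each list, and miR-449a-5p; others, among them the lowest correlations, were chosen after their values were seen. Members and lists were chosen with earlier results of these data known. Of the cell type and p53 lists, some miRNAs stand in 2. Among 22 groups of 5 values examined for a library far from its neighbours (gap over 0.71 of the range), 0 were found.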

Additional observations from a re-analysis of the deposited data

How the results depend on the processing

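The 17 alternative fits (library totals, DESeq2, limma, no filter, a stricter filter, identical rows once, a replicate block, and each library left out) each called 0 miRNAs. Each kept the 4 miR-34b/c arms higher in knockout and not called, though the stricter filter left miR-34c-3p untested. With 1 library left out, log2 fold changes ran from 0.38 to 0.94 for miR-34c-5p, 0.37 to 0.93 for miR-34b-3p, 0.29 to 0.82 for miR-34b-5p and 0.64 to 1.12 for miR-34c-3p. In edgeR's test miR-34c-3p had an unadjusted p of 0.019 with no filter. It had 0.042 without control replicate 1, 0.032 without control replicate 2 and 0.020 without knockout replicate 4. Without control replicate 2, miR-34b-5p had 0.049. Apart from the replicate block, the remaining fits left every member above 0.05. The value of miR-34a-5p turned positive with library totals (0.113), limma (0.00138), no filter (0.0308), the stricter filter (0.00145), identical rows once (0.0241) and the replicate block (0.00339), and ran from -0.0336 to 0.0777 with 1 library left out; the cause was not tested.

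The labels do not say what a replicate number marks, so the numbers were not taken as pairs in the main tests. Of 5 same-number pairs 3 deviated together (r of 0.45, 0.38 and 0.40, against -0.08 and -0.12), which does not settle whether the numbers mark pairs. For 4 of the 10, the closest library of the other genotype carried the same number. With the replicate block log2 fold changes were 0.72 for miR-34c-5p, 0.87 for miR-34c-3p, 0.66 for miR-34b-3p and 0.65 for miR-34b-5p (unadjusted p = 0.013, 0.017, 0.048 and 0.041, adjusted p = 0.18, 0.20, 0.31 and 0.28 in edgeR's test), and 72 of 457 miRNAs had an unadjusted p under 0.05, against 29. That count was 14 with library totals, 102 of 1105 with no filter, 16 of 282 with the stricter filter and 6 to 84 with 1 library left out. The ratio of the loci was higher in the knockout of all 5 same-number pairs, for which the exact sign-flip permutation test gave p = 0.0625, the smallest it can give (adjusted p = 0.25). The Mir34b arm ratio turned in sign without control replicate 3 or knockout replicate 1, 2 or 5 (range -0.147 to 0.196 with 1 library left out). The miR-34a-5p correlation with miR-34b/c was 0.514 with library totals and -0.714 (adjusted exact permutation p = 0.021) without 2 libraries. The scaling check of the most alike miRNAs was added after seeing the data. Depth limits the rarest arms, at 18 to 25 counts in control replicate 5.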
